A study of Mus musculus with 12 samples.

Results

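The genes described here are 10 markers of border-associated macrophages, chosen by symbol as Folr2, F13a1, Mrc1, Cd163, Lyve1, Cd38, Clec12a, Pf4, Cbr2 and Stab1, among 46262 genes in the deposited table. All 10 were found, and their transcript values were summed per gene. The series profiled primary microglia of wild-type mice (WT in the labels) in 12 RNA-seq libraries, with forebrain and cerebellar glial cultures as the sources, and the deposited table calls the microglia neonatal without giving an age. For 24 hours the cells had either CSF-1 (20 ng/ml) or, in the other arm, IL-34 (100 ng/ml), and each of the 4 groups has 3 libraries from independent cultures. All 4 groups were treated, the doses of the ligands differed, and no group without ligand was analysed here. The values are TPM, which adjust the reads of a transcript for its length and sum to the same total in each library. In TPM a lower level is a lower share of the RNA, and in bulk RNA fewer cells of a type and less RNA per cell cannot be told apart.

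Border-associated macrophages live at the edges of the brain, in the meninges, the perivascular spaces and the choroid plexus. They share the receptor CSF1R with microglia, and both CSF-1 and IL-34 signal through it. They are usually told from microglia by scavenger and uptake receptors such as CD206, encoded by Mrc1, and by low levels of microglial genes such as P2ry12 and Tmem119. Several of their markers are also found on tissue macrophages elsewhere and on cultured microglia, so a marker level in a culture does not count cells of that type.

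Of 18 microglial marker genes, 15 reached 1 TPM in at least 3 libraries and were tested. The summed level of all 18 lay between 4866 and 5710 TPM in every library, and Csf1r lay between 1128 and 1331 TPM. The means of P2ry12, Tmem119 and Siglech were 9.51, 13.9 and 0.217 TPM. Tmem119 read 7.15 to 9.91 TPM in forebrain and 17.7 to 20.4 TPM in cerebellum, and was higher in cerebellum by 1.01 on the log2(TPM + 1) scale under each ligand (limma adjusted p = 0.000376 with CSF-1 and 0.000256 with IL-34). No other microglial gene was called for region, and P2ry12 differed by -0.29 (adjusted p = 0.189) and -0.38 (adjusted p = 0.0653). The summed level of 9 monocyte genes was at most 2.14 TPM, and Ly6c1, Chil3, S100a8 and S100a9 were listed at 0 in all 12 libraries. Summed levels were at most 3.08 TPM for 8 dendritic cell genes, 17.6 TPM for 10 endothelial genes, with Cldn5 listed at 0, and 5.47 TPM for 7 platelet genes. They were at most 1.65 TPM for 8 lymphocyte genes, with Nkg7 listed at 0, 2.83 TPM for 7 fibroblast genes and 3.83 TPM for 8 neuronal genes, with Neurod1 listed at 0.

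Genes of 3 lists of other cells were called for region. The summed level of 8 astrocyte genes was 28.9 to 31.7 TPM in forebrain and 14.5 to 19.8 TPM in cerebellar libraries, and Gfap, Gja1 and Aldoc were lower in cerebellum under both ligands. The summed level of 8 oligodendrocyte genes was 109 to 129 TPM in forebrain and 126 to 153 TPM in cerebellum, where Mbp was higher and Olig1 was lower under both ligands. Map2, the 1 neuronal gene tested, was lower in cerebellum with IL-34 (-1.01, adjusted p = 0.0418), where the summed level of the neuronal list was 0.667 to 0.880 TPM against 1.44 to 2.84 TPM in forebrain. The part of these lists and of Tmem119 in the region differences below was not tested. Libraries also differed in how far they held short transcripts. The length floor, below which 1 percent of the transcripts at 5 TPM or more fell, ranged over 491 to 580 nt among cerebellar libraries with IL-34, against 592 to 669 nt in the other 9.

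The upstream sequences of Folr2, F13a1 and Stab1 are shown first, because the first 2 had the smallest p for region among these genes and Stab1, the most abundant, had none that passed the test. Each is the 250 bases before an annotated start in RefSeq (GRCm38.p6), written 5′ to 3′ on the strand of the gene, the minus strand in each case. Capitals mark GAGGAA, the core of a PU.1-type site, TGCTGA, a MAF-type site, and TGANTCA, an AP-1-type site, searched on both strands. The regions are chr7:101857191-101857440 and chr7:101845332-101845581 for the upstream and downstream Folr2 starts, chr13:37050245-37050494 for the upstream F13a1 start and chr14:31168642-31168891 for Stab1.
Folr2, upstream start: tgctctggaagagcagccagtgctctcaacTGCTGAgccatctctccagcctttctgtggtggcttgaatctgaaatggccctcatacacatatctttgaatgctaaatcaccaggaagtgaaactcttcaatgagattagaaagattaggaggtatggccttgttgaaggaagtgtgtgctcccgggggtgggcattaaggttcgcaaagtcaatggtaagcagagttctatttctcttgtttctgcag
Folr2, downstream start: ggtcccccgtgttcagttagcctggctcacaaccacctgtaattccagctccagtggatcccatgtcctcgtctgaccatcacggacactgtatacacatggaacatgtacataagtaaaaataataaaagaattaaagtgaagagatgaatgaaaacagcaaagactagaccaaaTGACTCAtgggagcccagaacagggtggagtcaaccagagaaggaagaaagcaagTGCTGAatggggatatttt
F13a1, upstream start: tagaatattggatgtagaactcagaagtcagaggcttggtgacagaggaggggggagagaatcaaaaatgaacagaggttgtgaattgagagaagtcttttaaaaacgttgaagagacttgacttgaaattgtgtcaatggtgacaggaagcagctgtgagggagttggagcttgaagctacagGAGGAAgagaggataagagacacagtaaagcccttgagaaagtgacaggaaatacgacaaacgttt
Stab1: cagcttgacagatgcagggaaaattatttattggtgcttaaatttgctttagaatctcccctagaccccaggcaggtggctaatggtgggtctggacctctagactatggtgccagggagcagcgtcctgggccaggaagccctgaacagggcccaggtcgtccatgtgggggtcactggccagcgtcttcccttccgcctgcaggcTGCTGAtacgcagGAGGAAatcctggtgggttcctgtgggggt

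Both Folr2 sequences held 1 TGCTGA and no GAGGAA, and the downstream one also held TGACTCA. The upstream F13a1 sequence held 1 GAGGAA, 61 to 66 bases before the start. The sequence before the downstream F13a1 start, not shown, held none of these motifs. Stab1 held TGCTGA and GAGGAA side by side, and no 2 motifs overlapped in any member. Of 11 upstream sequences for 9 of the genes in the RefSeq table, 6 held GAGGAA, 3 TGCTGA and 2 TGANTCA. Among 32851 sequences of the same length the shares were 23.3% for GAGGAA, 16.1% for TGCTGA and 6.75% for TGANTCA. These letters are a description and not evidence of binding.

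By mean TPM over the 12 libraries the order was Stab1 at 326, Clec12a at 174, Folr2 at 53.0, Pf4 at 47.0, Mrc1 at 32.1, F13a1 at 16.6, Cd38 at 2.79, Cbr2 at 1.23, Cd163 at 0.335 and Lyve1 at 0.160. Every Stab1 value lay above every Clec12a value. Every Clec12a value lay above every Folr2 value. All other neighbours in this order overlapped in range over the 12 libraries. Of these, Pf4 ranged from 0 to 131 TPM, and Folr2 was above Mrc1 in the 6 forebrain libraries and under it in the 6 cerebellar ones. Of the 10 genes, 8 reached 1 TPM in at least 3 libraries and were tested, and Cd163 and Lyve1 did not.

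**Figure D1:**
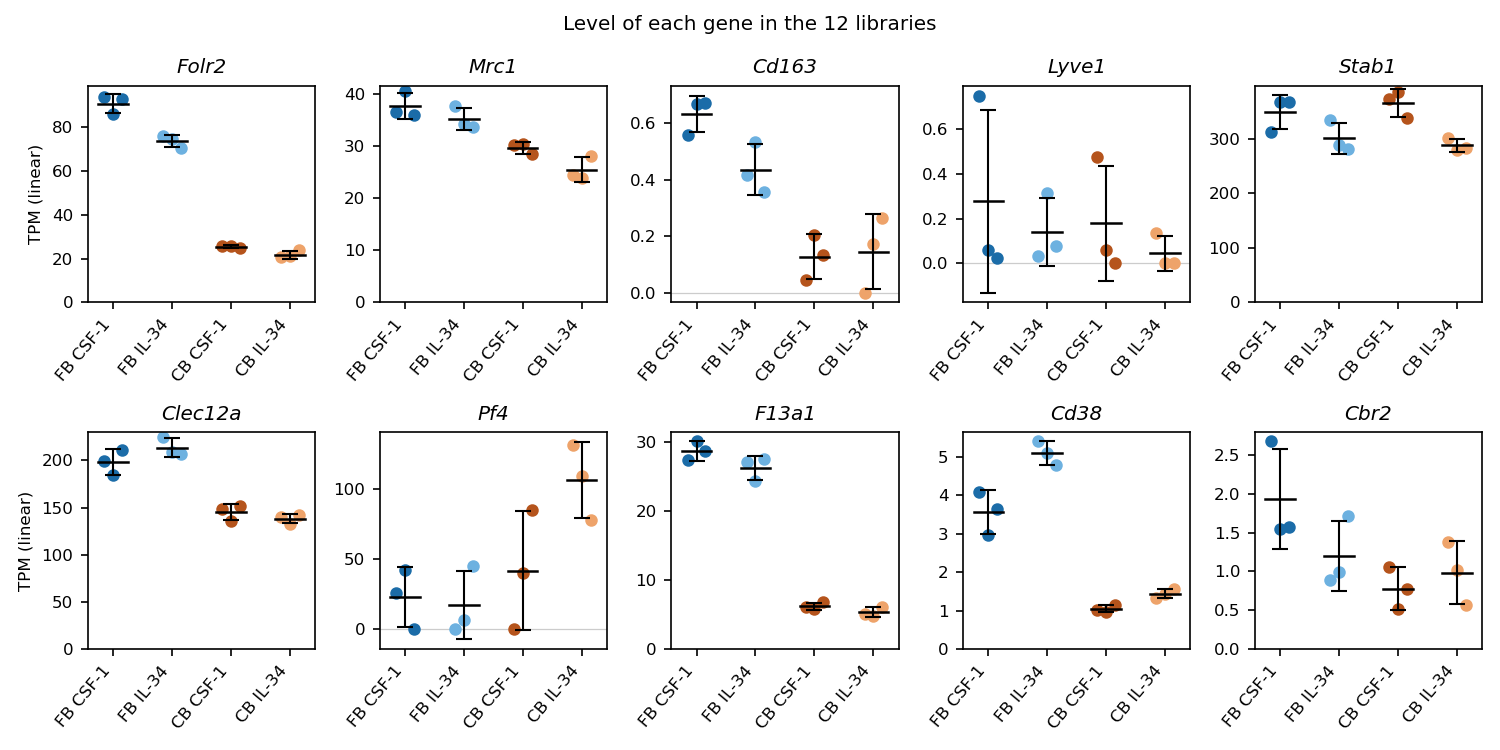
TPM (linear axis) of each gene in each of the 12 libraries (points), with the group mean and SD (bars) for forebrain (FB) and cerebellum (CB) under CSF-1 or IL-34. All 6 forebrain libraries lie above all 6 cerebellar ones for Folr2, Mrc1, Cd163, Clec12a, F13a1 and Cd38, while Stab1, Lyve1, Cbr2 and Pf4 overlap.

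The first comparison asks whether cerebellar and forebrain microglia differ in these genes under each ligand. Folr2, F13a1, Cd38, Clec12a and Mrc1 were lower in cerebellum than in forebrain under both ligands. No tested member was called higher in cerebellum. For these 5 of the 8 tested, the 6 forebrain libraries all lay above the 6 cerebellar ones, a pattern that 4.18% of all tested genes showed. Cd163, which was not tested, showed it too. The calls cover 5 of the 8 tested genes with CSF-1, where 3.42% of the 12419 genes tested were lower. With IL-34 they cover 5 of 8, where 8.22% were lower. Genes called lower under both ligands made up 2.55% of all tested. The median log2 fold change of the 8 was -0.58 with CSF-1 and -0.54 with IL-34, beside 0.03 and -0.02 over all genes tested. The members were chosen with earlier results of these data known. These shares and medians, here and for ligand below, therefore describe the list and do not test it.

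Folr2 encodes a folate receptor that is widely used to mark perivascular and other resident macrophages. It lies on chromosome 7 from 101839988 to 101857194 (GRCm38), minus strand. The forebrain libraries read 93.9, 85.9 and 92.8 TPM with CSF-1 and 76.0, 74.8 and 70.6 TPM with IL-34. The cerebellar libraries read 25.9, 25.9 and 24.7 TPM with CSF-1 and 20.6, 21.0 and 23.9 TPM with IL-34. No forebrain library came near a cerebellar one, and within each region the CSF-1 libraries stood above the IL-34 ones. The mean over the 6 forebrain libraries was 3.48 times the cerebellar mean. On the log2(TPM + 1) scale, cerebellum was lower by -1.79 (SE 0.0670, limma adjusted p = 1.34e-07) with CSF-1 and by -1.71 (SE 0.0670, adjusted p = 1.45e-07) with IL-34. By p it ranked 2nd and 3rd of the 12419 genes.

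Mrc1 encodes the mannose receptor CD206, an endocytic receptor, and lies on chromosome 2 from 14229392 to 14332057, plus strand. With CSF-1 it read 36.6, 40.7 and 36.1 TPM in forebrain and 30.2, 30.5 and 28.4 TPM in cerebellum. With IL-34 it read 37.8, 34.4 and 33.8 TPM in forebrain and 24.5, 24.0 and 28.2 TPM in cerebellum. The regions did not overlap under either ligand, but the gap was small, at 1.32 times over the 6 libraries of each region. Cerebellum was lower by -0.34 (SE 0.0792, adjusted p = 0.0298) with CSF-1 and by -0.45 (SE 0.0792, adjusted p = 0.00426) with IL-34. The CSF-1 call was lost without any 1 of the 6 libraries compared, with adjusted p between 0.0508 and 0.0945. The IL-34 call was lost with the length floor as a covariate, at -0.33 and adjusted p = 0.302. Over all genes tested, that covariate took the calls for this comparison from 1675 to 134, so the loss is not particular to Mrc1.

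Cd163, the haemoglobin scavenger receptor, was near 0 throughout. It read 0.558, 0.667 and 0.673 TPM in forebrain with CSF-1, and 0.417, 0.535 and 0.355 TPM with IL-34. In cerebellum it read 0.0446, 0.205 and 0.133 TPM with CSF-1, and 0, 0.172 and 0.263 TPM with IL-34. It fell under the filter, yet every forebrain library lay above every cerebellar one. An exact two-sided permutation test with regions permuted within ligand gave p = 0.005, the smallest that 400 arrangements allow, and the same test for Lyve1 gave p = 0.495. With no filter, limma gave -0.54 (adjusted p = 0.0162) with CSF-1 and -0.33 (adjusted p = 0.0775) with IL-34.

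Lyve1, a hyaluronan receptor of perivascular macrophages and lymphatic vessels, was at most 0.748 TPM and was listed at 0 in 3 libraries. Most of its value sat in a retained-intron transcript of 802 nt, and the coding transcript reached at most 0.134 TPM.

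Stab1 encodes stabilin-1, a large scavenger receptor, and lies on chromosome 14 from 31139013 to 31168641, minus strand. It read 313, 367 and 367 TPM in forebrain with CSF-1 and 334, 288 and 282 TPM with IL-34. In cerebellum it read 373, 387 and 338 TPM with CSF-1 and 302, 279 and 283 TPM with IL-34. The regions overlapped under each ligand. The region difference was 0.07 with CSF-1 (95% interval -0.11 to 0.25) and -0.06 with IL-34 (-0.24 to 0.12), so a difference the size of Folr2's lay outside both intervals.

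Clec12a encodes an inhibitory C-type lectin receptor of myeloid cells and lies on chromosome 6 from 129342691 to 129365303, plus strand. It read 200, 184 and 211 TPM in forebrain with CSF-1 and 225, 209 and 206 TPM with IL-34. In cerebellum it read 149, 136 and 152 TPM with CSF-1 and 140, 133 and 142 TPM with IL-34. The lowest forebrain library stood above the highest cerebellar one. Cerebellum was lower by -0.44 (SE 0.0637, adjusted p = 0.00201) with CSF-1 and by -0.62 (SE 0.0637, adjusted p = 0.000167) with IL-34.

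Pf4, a platelet and macrophage chemokine also called CXCL4, varied widely between libraries. It lies on chromosome 5 from 90772435 to 90773383, plus strand. It read 26.1, 42.1 and 0 TPM in forebrain with CSF-1 and 0, 6.90 and 45.0 TPM with IL-34. In cerebellum it read 0, 40.4 and 85.0 TPM with CSF-1 and 131, 109 and 77.9 TPM with IL-34. The only Pf4 transcript with a value is 588 nt long. The 3 libraries at 0 had length floors of 661 to 669 nt, and the 3 cerebellar IL-34 libraries, with floors of 491 to 580 nt, held 3 of the 4 highest values. No region difference passed the test (0.54, SE 1.85, adjusted p = 0.903 with CSF-1 and 3.88, SE 1.85, adjusted p = 0.190 with IL-34), and the 95% intervals were wide, from -3.54 to 4.61 and from -0.20 to 7.95. With the length floor as a covariate both signs turned, to -0.13 and -2.59.

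**Figure D2:**
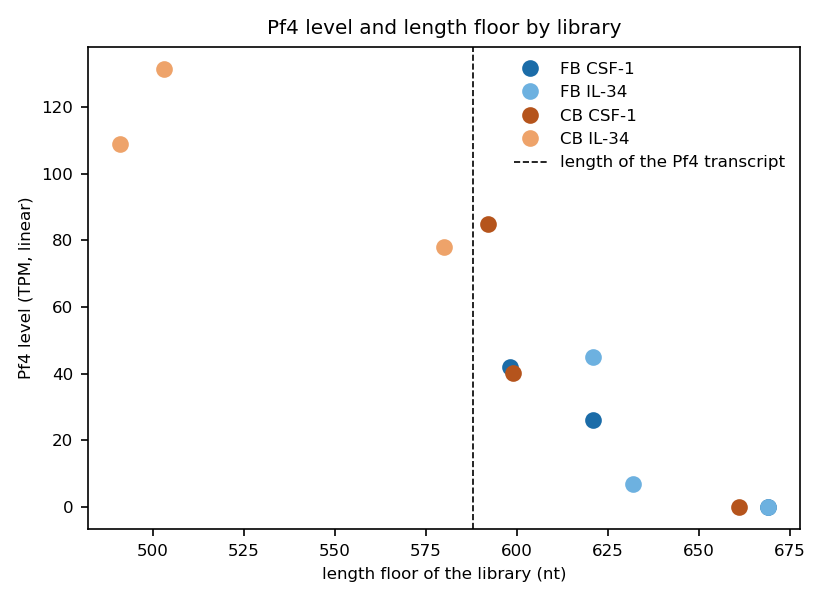
Pf4 TPM (linear axis) against the length floor of each of the 12 libraries (nt), coloured by group, with the length of the Pf4 transcript as a dashed line. The 3 cerebellar IL-34 libraries are left of the line at 77.9 to 131 TPM, and the 3 libraries at 0 TPM are farthest right, 2 of them at the same point.

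F13a1 encodes the A subunit of coagulation factor XIII, a transglutaminase that cross-links fibrin and is made by macrophages. It lies on chromosome 13 from 36867178 to 37050244, minus strand. It read 27.3, 30.1 and 28.7 TPM in forebrain with CSF-1 and 27.0, 24.3 and 27.5 TPM with IL-34. In cerebellum it read 6.03, 5.76 and 6.78 TPM with CSF-1 and 5.01, 4.73 and 6.14 TPM with IL-34. The forebrain mean was 4.79 times the cerebellar mean, the widest ratio among the tested members. Cerebellum was lower by -2.05 (SE 0.0992, adjusted p = 1.48e-06) with CSF-1 and by -2.12 (SE 0.0992, adjusted p = 6.53e-07) with IL-34.

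Cd38 encodes an ectoenzyme that consumes NAD, and lies on chromosome 5 from 43868553 to 43912375, plus strand. It read 4.09, 2.96 and 3.65 TPM in forebrain with CSF-1 and 5.42, 5.09 and 4.80 TPM with IL-34. In cerebellum it read 1.03, 0.959 and 1.15 TPM with CSF-1 and 1.33, 1.44 and 1.55 TPM with IL-34. Regions did not overlap, and within each region the IL-34 libraries stood above the CSF-1 ones. Cerebellum was lower by -1.15 (SE 0.125, adjusted p = 0.000347) with CSF-1 and by -1.32 (SE 0.125, adjusted p = 9.39e-05) with IL-34, on a scale that understates changes at this low level.

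Cbr2, a carbonyl reductase, lies on chromosome 11 from 120729489 to 120732114, minus strand, and had a mean of 1.23 TPM. Over both ligands its regions overlapped, with 0.888 to 2.69 TPM in forebrain and 0.512 to 1.38 TPM in cerebellum. With CSF-1 alone they did not, at 1.55 to 2.69 TPM in forebrain and 0.512 to 1.06 TPM in cerebellum. The region difference was -0.71 (adjusted p = 0.0902) with CSF-1 and -0.15 (adjusted p = 0.700) with IL-34.

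**Figure D3:**
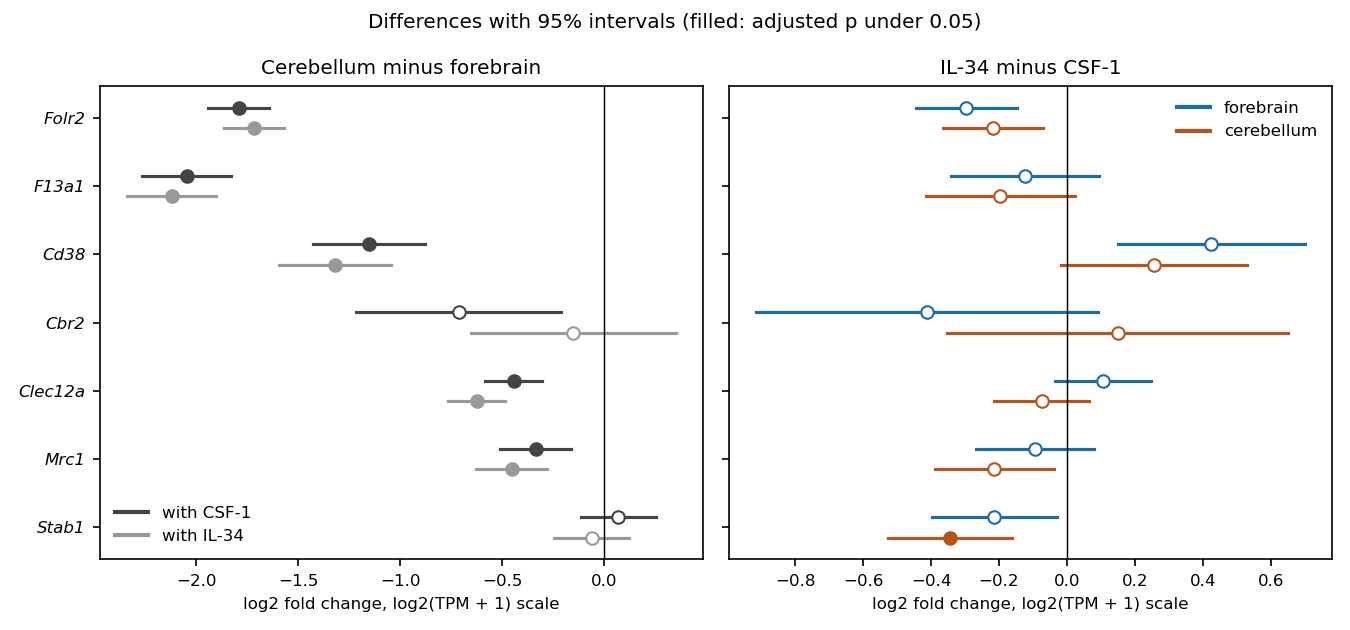
Log2 fold changes on the log2(TPM + 1) scale with 95% intervals for 7 tested members, as cerebellum minus forebrain (left) and IL-34 minus CSF-1 (right), with filled points for limma adjusted p under 0.05. Pf4 is left out for its wide intervals. Folr2, F13a1, Cd38, Clec12a and Mrc1 lie left of 0 under both ligands, and Stab1 crosses 0.

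Folr2 and F13a1 each have transcripts from an upstream and a downstream start. The Folr2 transcript ENSMUST00000210598, whose start is the upstream one, carried 30.2 to 40.4 TPM in forebrain and 4.91 to 12.5 TPM in cerebellum. The downstream transcript ENSMUST00000094141 carried 27.9 to 48.7 TPM and 11.4 to 15.7 TPM. Both were thus higher in every forebrain library than in any cerebellar one. The forebrain mean was 4.49 times the cerebellar mean for ENSMUST00000210598 and 2.84 times for ENSMUST00000094141. The transcript of 667 nt ranged over 0 to 4.48 TPM in cerebellum against 6.73 to 11.9 TPM in forebrain. For F13a1 the 2 coding transcripts could not be read apart: ENSMUST00000164727 made up between 1.39% and 100.0% of the gene from library to library, so only the sum is used. Folr2 is overlapped on the other strand by Gm10602, at 7.76 TPM, and Stab1 for 112 bases by Nt5dc2, at 99.0 TPM, and these libraries do not mark strand.

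**Figure D4:**
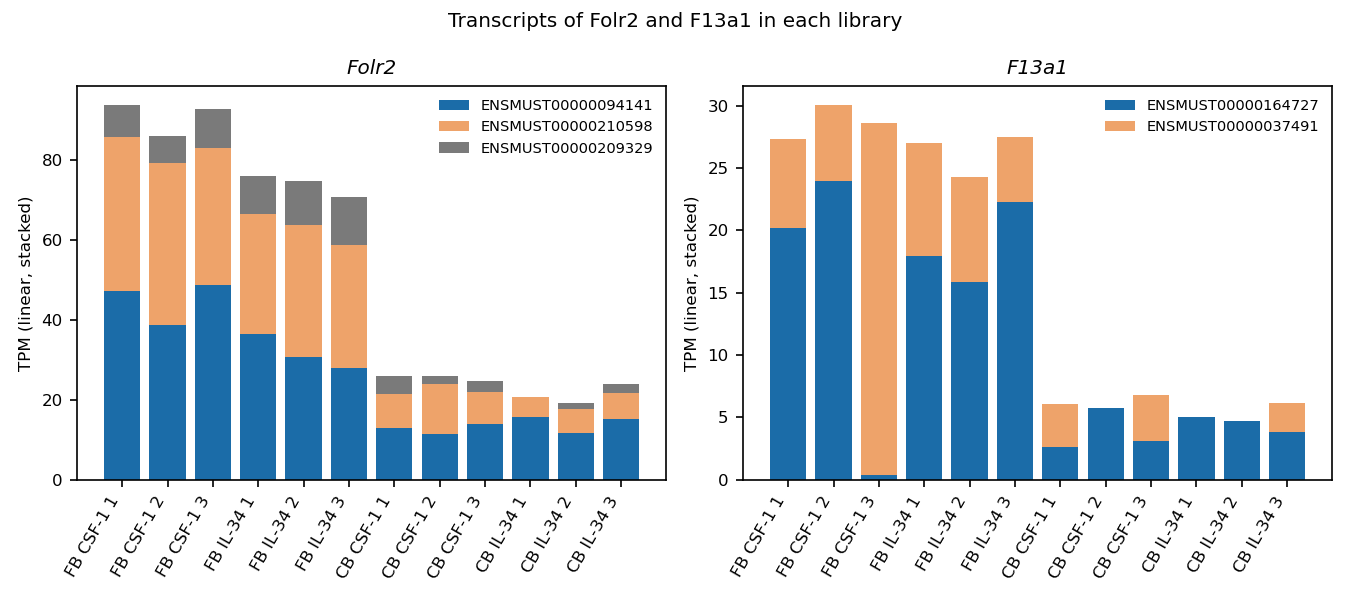
TPM (linear, stacked bars) of the main transcripts of Folr2 and F13a1 in each of the 12 libraries. Each Folr2 colour is smaller in cerebellum (CB) than in forebrain (FB), though not in the same proportion. The F13a1 colours trade places between libraries, as in FB CSF-1 replicate 3.

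The second comparison asks how IL-34 differs from CSF-1 in these genes. Averaged over both regions, Folr2 and Stab1 were lower with IL-34 and Cd38 was higher. These are 3 of the 8 tested, beside 2.73% of all genes tested called higher and 10.7% called lower, 13.4% in all. Folr2 differed by -0.26 (SE 0.0474, adjusted p = 0.00708), Stab1 by -0.28 (SE 0.0588, adjusted p = 0.0125) and Cd38 by 0.34 (SE 0.0882, adjusted p = 0.0284). The Cd38 call is the least settled: it was lost without forebrain CSF-1 replicates 2 or 3, forebrain IL-34 replicates 2 or 3, cerebellar CSF-1 replicates 1 or 2, or cerebellar IL-34 replicates 2 or 3, with adjusted p between 0.0505 and 0.0657. The Stab1 call was lost with the length floor as a covariate (-0.24, adjusted p = 0.0770), as was that of Cd38, and Folr2 kept its call in all 12 other settings and without each library in turn. Over all genes tested, the length floor covariate took the calls for the mean from 1667 to 609.

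In cerebellum alone 1 of the 8 was called, Stab1, lower with IL-34 by -0.34 (SE 0.0832, adjusted p = 0.0260), where 12.8% of all genes were called, 9.82% lower and 3% higher. It was lost without cerebellar CSF-1 replicates 1 or 2 or cerebellar IL-34 replicates 2 or 3, with adjusted p between 0.0509 and 0.0981, and with the length floor as a covariate (adjusted p = 0.443). Over all genes tested, that covariate took the ligand calls in cerebellum from 1593 to 37, so the loss is not particular to Stab1. Folr2 differed by -0.22 (adjusted p = 0.0554) and Mrc1 by -0.21 (adjusted p = 0.0956), and without cerebellar IL-34 replicate 3 both passed, at adjusted p = 0.0227 and 0.0420. In forebrain alone limma called 0 of the 8, and 3 had an unadjusted p under 0.05 (Folr2, Cd38 and Stab1), beside 1.2% of all genes called, 0.427% higher and 0.773% lower. Folr2 was lower by -0.30 (SE 0.0670, adjusted p = 0.0655) and passed without cerebellar IL-34 replicate 3 (adjusted p = 0.0407).

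Among the genes called for ligand, the share higher with IL-34 depended on the scaling. It was 35.6% in forebrain, 23.4% in cerebellum and 20.3% for the mean of both as deposited, and 56.2%, 57.8% and 53.1% after median-of-ratios scaling. After quantile normalization it was 52.7%, 38.4% and 39.2%. Folr2, Stab1 and Cd38 kept their signs under both scalings tried. The effect of ligand was not shown to differ between regions for any member. In the interaction limma called 0 of 8, beside 0.145% of all genes. None of the 8 had an unadjusted p under 0.05, and the smallest p was 0.0705, for Clec12a.

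A wider list of 40 border-associated macrophage genes, 34 of them tested, held genes that differed in both directions. In cerebellum with CSF-1, 9 were lower and 6 higher, and with IL-34 15 were lower and 6 higher, with medians of -0.14 and -0.19 beside 0.03 and -0.02 over all genes. Of all genes tested, 3.29% were higher in cerebellum with CSF-1 and 5.27% with IL-34. Vsig4, a complement receptor of resident macrophages, read 5.60 to 10.8 TPM in forebrain and 0.161 to 0.420 TPM in cerebellum, and was lower by -2.75 (adjusted p = 2.23e-05) and -2.90 (adjusted p = 6.83e-06). Marco, a scavenger receptor, was lower by -0.84 and -0.96, and Lilra5 by -0.90 and -1.40. Axl, a receptor for apoptotic cells, went the other way, at 0.49 and 0.54. So did Cd74, H2-Aa, H2-Ab1 and Nrp1 under both ligands, Apoe with CSF-1 and Ifnar1 with IL-34. Ms4a7, at a mean of 1863 TPM, was not called for region (0.08 and 0.16). Genes of the CD209 family, lectins of perivascular macrophages, were at most 1.05 TPM, and Cd209d was listed at 0.

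By ligand the same list of 34 tested held 2 higher and 2 lower in forebrain, beside 0.427% and 0.773% of all genes tested. In cerebellum it held 3 higher and 10 lower, beside 3% and 9.82%. For the mean it held 5 higher and 8 lower, beside 2.73% and 10.7%. Dab2, an endocytic adaptor, was lower with IL-34 in forebrain (-0.43, adjusted p = 0.00623) and cerebellum (-0.44, adjusted p = 0.00158), and Ms4a4a was higher in both (0.59, adjusted p = 0.00878 and 0.57, adjusted p = 0.00351). Igfbp4 was lower in forebrain (-0.75, adjusted p = 0.0191) and cerebellum (-0.61, adjusted p = 0.0153), and Clec4n was higher in both (0.38, adjusted p = 0.0312 and 0.34, adjusted p = 0.0146). Tgfbi was lower in cerebellum (-0.50, adjusted p = 0.00853). The interaction called 0 of the 34, beside 0.145% of all genes tested.

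Relatives of the members, 24 genes of which 14 were tested, included none called higher in cerebellum. Few of all genes tested were, at 3.29% with CSF-1 and 5.27% with IL-34. With CSF-1, 4 were lower (Tgm2, Hmmr, Cxcl9 and Cbr1), and with IL-34, 6 were. The shares of all genes tested that were lower were 3.42% and 8.22%. Tgm2, the tissue transglutaminase in the family of F13a1, was lower by -0.54 (adjusted p = 0.00092) and -0.68 (adjusted p = 0.000153), a smaller difference than that of F13a1. The paralogues Folr1, Mrc2, Stab2, Cd163l1 and Clec12b were at most 2.94, 0.404, 0.134, 0.0308 and 0 TPM. Clec7a, another C-type lectin, was higher with IL-34 in forebrain (0.51, adjusted p = 0.0379) and cerebellum (0.49, adjusted p = 0.0146).

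The genes whose pattern was most like each member were taken by Pearson r of log2(TPM + 1) over the 12 libraries, which share the regions, ligands and library quality. Folr2 was most like F13a1 (r = 0.992), Cd300lf (0.990) and Itgal (0.989), and F13a1 like Itgal (0.993), Folr2 and Cd300lf (0.991). Mrc1 was most like Ugcg (0.966), Mad2l1 (0.962) and Cd34 (0.955). Cd38 was most like Cd302 (0.993), Psmd8 (0.989) and Smpdl3a (0.988). Clec12a was most like Ifi205 (0.981), Lyz2 (0.979) and Rab32 (0.978), and Stab1 like Sf3b3 (0.988), Fam120a (0.970) and Eps15 (0.969). Pf4 was most like Chchd1 (0.994), Rps27l (0.983) and Lamtor2 (0.976), whose mean transcript lengths of 573 to 665 nt are also short. Cbr2 had lower likeness, to Cdk1 (0.862), Commd8 (0.826) and Ndufb11 (0.825). Among the members, Folr2, F13a1, Mrc1, Cd38 and Clec12a had r of 0.741 to 0.992 with one another, and Stab1 had r of -0.24 to 0.38 with those 5.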

How the data were processed

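The 12 libraries cover 2 regions and 2 ligands with 3 replicates each. Per the labels' protocols, the cDNA kit was SMART-Seq v4. One label describes extraction from human tissue, although all others are mouse. The authors deposited TPM for each Ensembl transcript. Per the submitters' processing notes, kallisto 0.43.0 and GRCm38 were used. Whether a bias correction was used is not stated in the labels. TPM holds no read depth, so errors come from the replicates and no counting interval is possible.

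TPM was summed per gene over 115879 transcripts, of which 98.7% matched GENCODE M21 for length and position. Genes at 1 TPM or more in at least 3 libraries (12419) were tested on log2(TPM + 1) with limma 3.58.1 in R 4.3.3. The model had 4 group means, a variance trend and 8 residual degrees of freedom. P-values were adjusted by Benjamini-Hochberg over all tested genes in each of 6 comparisons and called under 0.05. The fit was tested on simulated data with independent normal noise, which did not hold the length floor differences of these libraries. Cd163 and Lyve1 were below the filter and got an exact permutation test, chosen after seeing the data. Tables and figures were made with Python 3.11.15, pandas 2.3.3 and matplotlib 3.10.9. No pair of libraries among 66 was identical.

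The members and lists were chosen with earlier results of these data known. All members are named, with up to 4 genes of smallest p per list and comparison, marker genes of high level, and, for each member that passed the filter, the 3 most similar genes among tested ones with a mean of 5 TPM or more in some group. All genes of the wider list called higher in cerebellum are named too. Alternatives were the pseudocount, filter, scaling, variance model, library weights, replicate block, libraries fitted, transcript length and class, and leaving out each library.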

Additional observations from a re-analysis of the deposited data

How the results depend on the processing

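The 5 region calls under each ligand stayed at 4 to 6 genes in all 13 other settings and at 4 or 5 without each library in turn. Of the single values that were called, 316 stayed called, 28 lost the call and 0 reversed, and of those not called, 785 stayed, 12 gained a call and 25 reversed. Members called with IL-34 in cerebellum (1) became 0 without a filter and with the length floor as a covariate, and 2 with a filter of 5 TPM, with library weights and with protein-coding transcripts alone (added after seeing the data), and 0 to 2 without each library. Members called in forebrain (0) became 1 with library weights, with transcripts of 1000 nt or more and with the length floor as a covariate, and 0 to 1 without each library, and those for the mean of both regions (3) became 1 with the length floor as a covariate. That covariate also lowered the calls over all genes tested, from 1593 to 37 in cerebellum and from 1667 to 609 for the mean.

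With the length floor as a covariate the uncalled values that turned sign were, for ligand, Pf4 at 0.071 in forebrain, -2.39 in cerebellum and -1.16 for the mean, Clec12a at 0.052 and Cbr2 at -0.069 in cerebellum, and in the interaction F13a1 at 0.043 and Pf4 at -2.46. For region they were Pf4 at -0.13 with CSF-1 and -2.59 with IL-34, and Stab1 at 0.039 with IL-34. Clec12a turned to 0.036 in cerebellum with median-of-ratios scaling and to -0.050 for the mean with transcripts of 1000 nt or more. Without each library in turn, Pf4 ranged from -2.26 to 0.86 for ligand in forebrain and from -1.16 to 2.50 for region with CSF-1, Stab1 from -0.0070 to 0.12 with CSF-1 and from -0.11 to 0.014 with IL-34, Clec12a from -0.0095 to 0.039 for the mean of ligand, and Cbr2 from -0.29 to 0.012 for region with IL-34. The cause was not tested. Pf4 has no value with transcripts of 1000 nt or more.

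Same-numbered libraries had correlations of their deviations between -0.45 and 0.46, and 5 of 18 pairs were above 0.1, so the numbers are not read as pairs. 1 library correlated best with its own number. With the replicate block, the region count with CSF-1 was 4, because Mrc1 (adjusted p = 0.0671) lost its call, and Cd38 (adjusted p = 0.0520) lost its call for the mean of ligand. TPM gives no depth, and levels near 1 TPM, as of Cbr2, Cd163 and Lyve1, rest on few reads of unknown number.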
